A study of Homo sapiens with 3 samples.

Results

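Transcript levels of 9 neural and neuroendocrine marker genes were read from the arrays of C33A cells, out of 18417 genes measured. The set was CHGA, CHGB, SYP, NCAM1, ENO2, INSM1, UCHL1, REST and NES, found on the arrays by gene symbol. C33A is a human cervical carcinoma line. RNA came from 3 separate cultures of untreated cells in exponential growth, each hybridized to its own Human Gene 1.0 ST array (Affymetrix), so that all samples form 1 group of 1 cell line and no contrast between conditions can be made. Each of the 9 genes had 1 probe set, and no other probe set named any of them. Values are log2 intensities, here called levels, and pairs of arrays correlated with Pearson's r of 0.993 to 0.994 over all probe sets. Probe sequence affects how strongly a probe set is lit, so that the order of levels between genes is a description of signals and not of transcript numbers.

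Neuroendocrine cells store peptide hormones in dense-core granules and release them on stimulation, and they share with neurons much of the machinery of vesicle release. Pathologists recognize tumours with this character, including rare neuroendocrine carcinomas of the cervix, by proteins of the granule (chromogranins A and B), of the small vesicle (synaptophysin), of the cell surface (NCAM1, or CD56), by the cytoplasmic enzymes neuron-specific enolase (ENO2) and UCHL1, and by the transcription factor INSM1. REST is the repressor that keeps many neuronal genes silent outside the nervous system, and nestin (NES) is an intermediate filament protein of neural stem cells.

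The markers did not share a common level in C33A cells. UCHL1 and REST gave strong signals on every array, and INSM1 and SYP lay above the median gene. ENO2 lay at the upper edge of the background, and CHGB, NES, CHGA and NCAM1 lay within it. No detection call was used, so background was judged from 455 protein-coding genes of families seldom expressed outside a few tissues (called silent families), the olfactory and taste receptors, the keratin-associated proteins and the beta-defensins. The 95th percentile of their levels, 6.43 log2, is called the bound. Of the 9 genes 5 (55.6%) had a mean level above it, against 56.3% of all measured genes, so that the share did not stand apart from the background. When each array was held to its own bound, from 6.35 to 6.47, 4 genes passed on all 3 arrays (44.4%, against 55.0% of all genes). The bound is set mainly by the keratin-associated protein genes, whose own 95th percentile was 7.96. With the olfactory receptor genes alone it was 5.38, and 8 of the 9 genes then exceeded it (88.9%, against 72.0% of all genes). The median level of the 9 genes was 6.55 log2, against 6.91 for all genes. In cultures measured in bulk, a low level in every cell and a high level in few cells cannot be told apart.

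**Figure D1:**
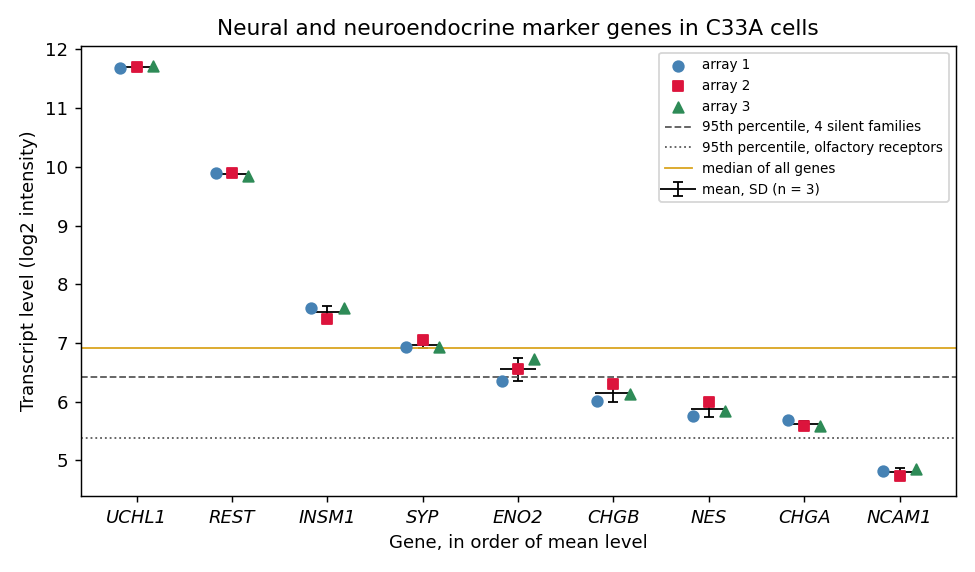
Transcript level (y axis, log2 intensity) of the 9 marker genes (x axis) on each of the 3 arrays, with the mean and SD as bars. Dashed and dotted lines are the 95th percentiles of the 4 silent families (6.43) and of the olfactory receptor genes (5.38), and the solid line is the median of all genes (6.91); UCHL1 and REST lie far above all lines, and NCAM1, at 4.74 to 4.85, lies below them.

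UCHL1, a ubiquitin C-terminal hydrolase that is abundant in the cytoplasm of neurons, had the highest level of the 9 genes. Its values were 11.69, 11.70 and 11.71 log2 on arrays 1, 2 and 3 (mean 11.70 ± 0.01, SD, n = 3 cultures). The cultures hardly differed, and the mean was above 99.1% of all measured genes and 5.27 log2 above the bound. None of the 455 genes of the silent families reached it. The related hydrolases UCHL3 and UCHL5, which are found in most tissues, were at 8.96 ± 0.05 and 8.66 ± 0.06 (SD, n = 3), also above the bound. BAP1, the remaining member of the family, was not analysed here.

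REST, the zinc-finger repressor of neuronal genes, had the next highest level. Its values were 9.90, 9.89 and 9.85 log2 on the 3 arrays (mean 9.88 ± 0.03, SD, n = 3), above 90.5% of all genes. The values of the 3 cultures lay within 0.05 log2, and none of them overlapped those of UCHL1 or INSM1. REST acts through corepressor complexes that hold histone deacetylases and histone methyltransferases and demethylases, and of 14 such genes measured beside it 13 exceeded the bound, with a median of 9.11 log2. The highest was KDM1A, a histone demethylase, at 11.52 ± 0.02 (SD, n = 3). RCOR2, a CoREST protein, was the only measured corepressor of the list below the bound, at 6.12 ± 0.13 (SD, n = 3). Among the genes that act on REST itself, USP7, which removes ubiquitin from the protein, was at 11.98 ± 0.03 and BTRC, a subunit of the ligase that marks it for degradation, at 8.97 ± 0.12 (SD, n = 3). SRRM4, the neural splicing factor that turns REST mRNA to a shortened form, was below the bound at 5.43 ± 0.18 (SD, n = 3). Of 16 other neuronal genes known as REST targets 5 exceeded the bound, against 56.3% of all genes. Their median was 5.61 log2, from CELSR3, a cadherin receptor, at 7.99 ± 0.13 down to the sodium channel gene SCN3A at 3.23 ± 0.06 (SD, n = 3). The count depended on the bound. With the markers of this list included, 14 of 19 targets exceeded the olfactory receptor bound of 5.38, against 72.0% of all genes. Of the markers held in this target list, SYP was above the main bound and CHGA and CHGB below it. Whether other markers are also REST targets was not examined. Whether REST protein acts on these genes in C33A cells was not tested.

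**Figure D2:**
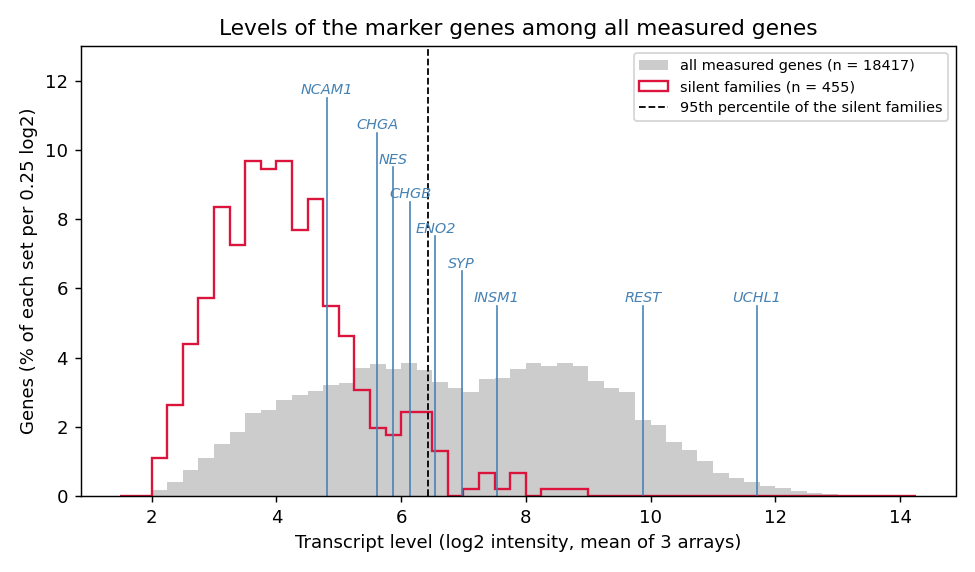
Distribution of transcript levels (x axis, log2 intensity, mean of 3 arrays) as the percentage of genes per 0.25 log2 (y axis), for all 18417 measured genes (filled) and 455 genes of silent families (outline), with the 9 marker genes as vertical lines whose heights carry no value. UCHL1 (11.70) and REST (9.88) lie in the upper part of the distribution, and CHGB, NES, CHGA and NCAM1 lie left of the dashed bound at 6.43.

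INSM1, a zinc-finger transcription factor of neuroendocrine differentiation, was at 7.59, 7.41 and 7.60 log2 (mean 7.53 ± 0.10, SD, n = 3). Arrays 1 and 3 were alike and array 2 lower, and all of them exceeded their own bound. The mean lay above 57.9% of all genes, in the sixth decile. Of the 455 silent family genes 7 had a higher level, all of them keratin-associated protein genes. Among 16 other neuroendocrine and neurogenic transcription factors 3 exceeded the bound, with a median of 5.95 log2, from ISL1, a LIM homeodomain factor, at 7.75 ± 0.04 down to PROX1 at 4.72 ± 0.11 (SD, n = 3). Without array 3 the count for this list, INSM1 included, was 7 in place of 4, since several of its genes lie close to the bound.

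SYP encodes synaptophysin, a membrane protein of small synaptic and synaptic-like vesicles. Its values were 6.93, 7.05 and 6.94 log2 (mean 6.97 ± 0.06, SD, n = 3), above the bound on each array and 0.06 log2 above the median of all genes. Of the silent family genes 11 had a higher level, all of them keratin-associated protein genes. In its own family, the widely found SYPL1 was at 10.03 ± 0.04 and the synaptogyrins SYNGR2, SYNGR1 and SYNGR3 at 9.22 ± 0.14, 7.95 ± 0.11 and 7.74 ± 0.05 (SD, n = 3). SYPL2 and the neuronal SYNPR were below the bound, at 6.17 ± 0.05 and 3.66 ± 0.15 (SD, n = 3). Of 16 other genes of synaptic vesicles and exocytosis 7 exceeded the bound, with a median of 5.48 log2, from the vesicle priming factor UNC13A at 7.29 ± 0.16 down to the glutamate transporter SLC17A6 at 3.91 ± 0.05 (SD, n = 3).

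ENO2, the neuronal isoform of the glycolytic enzyme enolase, was the member closest to the bound. Its values were 6.35, 6.56 and 6.73 log2 (mean 6.55 ± 0.19, SD, n = 3), below the bound of array 1, which was 6.42, and above those of arrays 2 and 3. The mean exceeded the bound by 0.12 log2, less than the SD between cultures. ENO1, the isoform found in most tissues, was at 13.71 ± 0.03 (SD, n = 3), among the highest genes on the arrays. The muscle isoform ENO3 and the sperm protein gene ENO4 were below the bound, at 5.81 ± 0.23 and 4.86 ± 0.20 (SD, n = 3). Whether transcripts of ENO1 add to the signal of the ENO2 probe set was not tested.

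The chromogranins, acidic proteins that fill the core of the secretory granule, were both below the bound. CHGB was at 6.02, 6.31 and 6.13 log2 (mean 6.15 ± 0.15, SD, n = 3), 0.28 log2 below it, with 33 silent family genes higher. CHGA, the most widely used serum marker of neuroendocrine tumours, was at 5.69, 5.58 and 5.59 log2 (mean 5.62 ± 0.06, SD, n = 3), with 52 silent family genes higher. The values of the chromogranins did not overlap, and both exceeded the olfactory receptor bound of 5.38 on every array. Of 9 other granule genes measured 5 exceeded the main bound, with a median of 6.55 log2. The highest of them was secretogranin II (SCG2), a granin like the chromogranins, at 9.15, 8.84 and 9.08 log2 (mean 9.02 ± 0.17, SD, n = 3), above 80.1% of all genes. The lowest was CADPS, which primes dense-core vesicles for release, at 4.08 ± 0.15 (SD, n = 3).

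NCAM1, a cell adhesion molecule of the immunoglobulin family, had the lowest level of the 9 genes, at 4.82, 4.74 and 4.85 log2 (mean 4.81 ± 0.06, SD, n = 3). It was below both bounds on every array, and 109 of the 455 silent family genes had a higher level. Of 7 other neural adhesion molecules 1 exceeded the bound, neurofascin (NFASC) at 7.35 ± 0.07 (SD, n = 3), and the lowest was CHL1 at 3.71 ± 0.12 (SD, n = 3). The median of these 7 was 5.29 log2.

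NES was at 5.75, 6.00 and 5.85 log2 (mean 5.87 ± 0.13, SD, n = 3), 0.56 log2 below the bound on the means and below the bound of each array. Its level was above 35.2% of all genes. Of 9 other neural progenitor genes 5 exceeded the bound, with a median of 6.82 log2. SOX2, a transcription factor of neural and other stem cells, was the highest of them at 10.95 ± 0.02 (SD, n = 3), above 97.3% of all genes, and the surface protein gene PROM1 the lowest at 3.68 ± 0.15 (SD, n = 3). Among 11 other intermediate filament and lamin genes, 7 exceeded the bound, from lamin B1 (LMNB1) at 11.12 ± 0.05 down to the neurofilament gene NEFM at 4.73 ± 0.33 (SD, n = 3). Alpha-internexin (INA), a neuronal filament protein named here after its value was seen, was at 10.28 ± 0.13 (SD, n = 3).

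**Figure D3:**
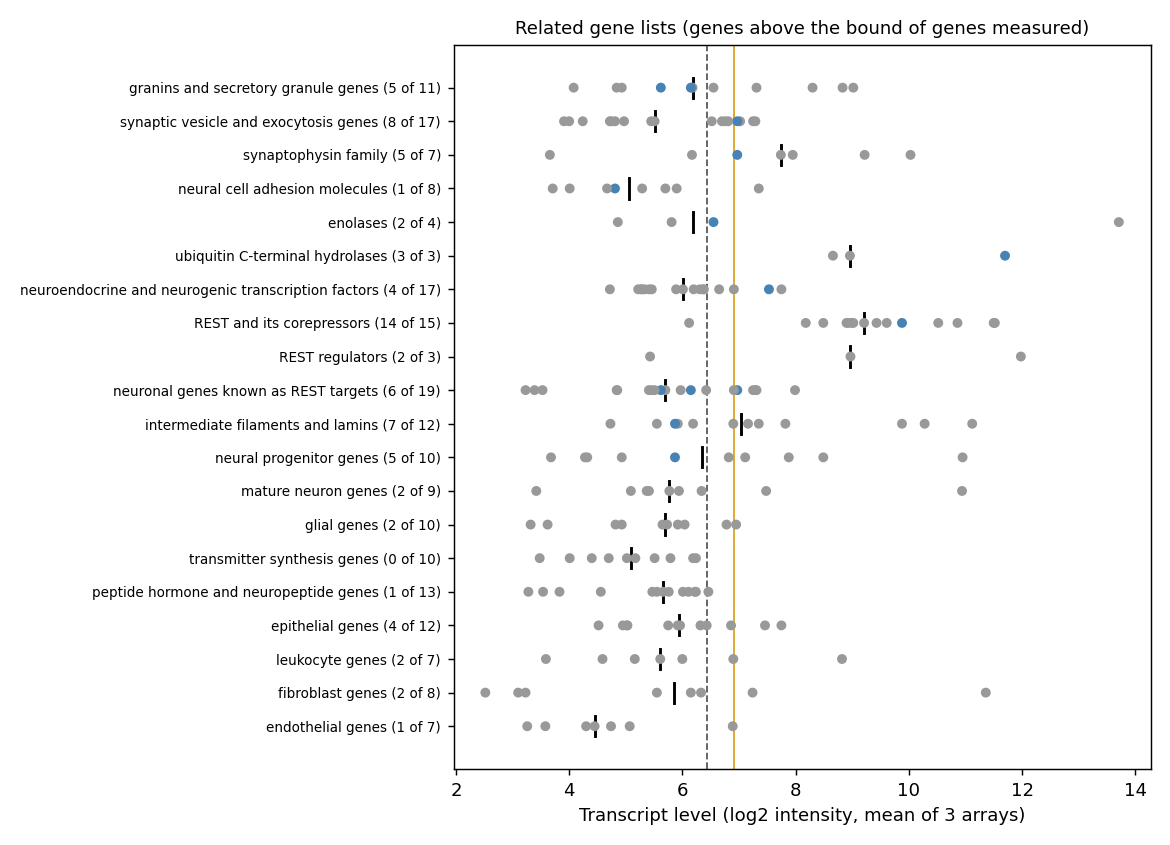
Transcript level (x axis, log2 intensity, mean of 3 arrays) of each measured gene in 20 related gene lists (y axis), with the 9 marker genes in blue, other genes in grey and the median of each list as a black bar; genes may stand in more than 1 list. Numbers in brackets are genes above the dashed bound (6.43) of genes measured, and the solid line is the median of all genes (6.91); REST and its corepressors lie mostly right of the bound (14 of 15), neural cell adhesion molecules mostly left of it (1 of 8).

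In descending order the levels were UCHL1, REST, INSM1, SYP, ENO2, CHGB, NES, CHGA and NCAM1, and the values of neighbours in this order overlapped in none of the 8 pairs. The nearest neighbours were NES and CHGA, which differed by 0.25 ± 0.18 log2 within arrays (SD, n = 3) and by no more than 0.06 on array 1, followed by CHGB and NES, with a difference of 0.28 ± 0.02 (SD, n = 3). The distance between REST and INSM1, at 2.35 ± 0.12 log2, was the widest (SD, n = 3).

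The spread between cultures was that of genes of like level. The median SD of the 9 genes was 0.06 log2, against 0.08 over all genes, and 5 of them had an SD below and 4 above the median SD of their decile of level. ENO2 varied most, with a range of 0.38 log2 and an SD larger than that of 89.9% of genes in its decile. UCHL1 varied least, with an SD smaller than that of most genes of the highest decile, whose median SD was 0.04. No array was high or low for all 9 genes. The median difference of the 9 genes between pairs of arrays was at most 0.01 log2, and array 1 held the lowest value for UCHL1, SYP, ENO2, CHGB and NES but the highest for REST and CHGA.

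**Figure D4:**
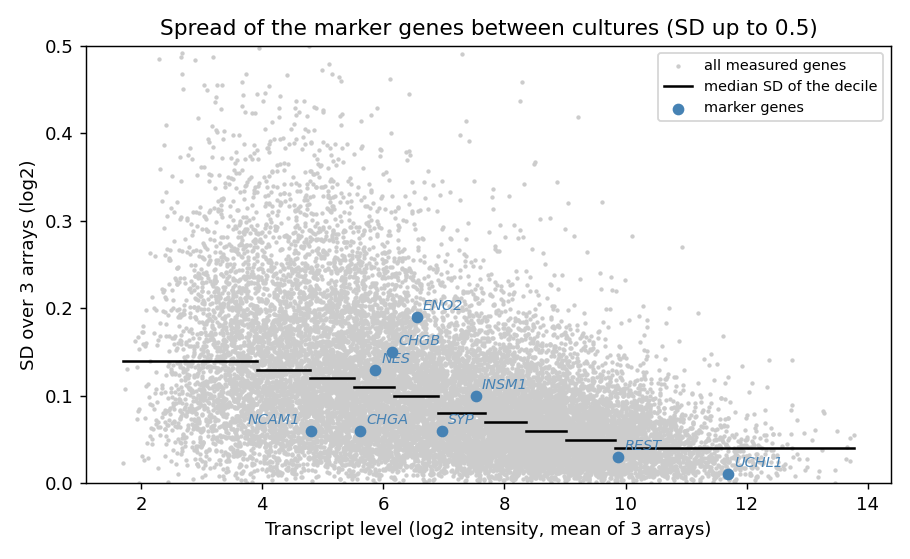
SD over the 3 arrays (y axis, log2) against mean transcript level (x axis, log2 intensity) for all measured genes (grey) and the 9 marker genes (blue), with the median SD of each decile of level as black bars; 29 genes with an SD above 0.5 are outside the plot. ENO2, at 0.19, lies above the median of its decile (0.10), and UCHL1, at 0.01, lies below that of the highest decile (0.04).

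Promoter sequences of RefSeq (GRCh38.p14), from 250 bases before to 50 after the transcription start, were held for CHGA, SYP, ENO2, UCHL1, REST and NES, with a pair of starts for REST. Since no binding was measured in these data, the sequences are shown to set the promoters of the genes of highest level beside those of the classic vesicle and granule markers. The 250 bases before the start are given 5′ to 3′ along the gene for UCHL1, REST (the start farther upstream), SYP and CHGA. Capitals mark the letters of a GC box (GGGCGG), a cyclic AMP response element (CRE, TGACGTCA) or a TATA box (TATAAA), on either strand.
UCHL1, chr4:41256678-41256927, plus strand: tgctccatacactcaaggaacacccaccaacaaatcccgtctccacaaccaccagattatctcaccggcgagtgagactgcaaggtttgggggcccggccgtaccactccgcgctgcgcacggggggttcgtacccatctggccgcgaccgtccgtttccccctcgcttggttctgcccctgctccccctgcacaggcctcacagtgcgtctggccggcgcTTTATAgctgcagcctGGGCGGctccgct
REST, chr4:56907650-56907899, plus strand: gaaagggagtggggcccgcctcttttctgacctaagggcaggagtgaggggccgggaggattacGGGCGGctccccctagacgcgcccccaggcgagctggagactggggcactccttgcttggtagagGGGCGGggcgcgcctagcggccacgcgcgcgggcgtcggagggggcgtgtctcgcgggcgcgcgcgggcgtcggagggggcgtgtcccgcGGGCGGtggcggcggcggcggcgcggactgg
SYP, chrX:49200194-49200443, minus strand: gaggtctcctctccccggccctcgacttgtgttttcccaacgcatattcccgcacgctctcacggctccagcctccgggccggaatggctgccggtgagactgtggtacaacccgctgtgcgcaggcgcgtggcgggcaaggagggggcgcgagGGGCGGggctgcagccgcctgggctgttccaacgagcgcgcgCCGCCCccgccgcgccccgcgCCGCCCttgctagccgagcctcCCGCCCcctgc
CHGA, chr14:92922900-92923149, plus strand: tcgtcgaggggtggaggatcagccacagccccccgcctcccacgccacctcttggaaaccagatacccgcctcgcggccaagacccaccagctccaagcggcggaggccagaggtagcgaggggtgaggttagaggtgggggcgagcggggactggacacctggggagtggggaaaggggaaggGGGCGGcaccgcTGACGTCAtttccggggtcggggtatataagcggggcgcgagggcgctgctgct

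All 6 genes with a sequence had a GC box in the window, which 45.0% of 35116 promoters of the same length hold. The CRE was found in CHGA, 54 bases before the start, and in 1.85% of all promoters. The exact letters TATAAA were found in UCHL1, on the reverse strand 29 bases before the start, and in 11.5% of all promoters. Variants of the TATA box were not searched, so the forward-strand letters TATATAA in the CHGA window were neither counted nor marked. The shorter letters TGACG, which overlap the CRE, were found in CHGA and NES and in 24.6% of all promoters. No window of the 6 genes held CCAAT (34.6% of all promoters) or the E2F site letters TTTGGCGC, TTTCGCGC or TTTCCCGC (0.652%, 0.515% and 1.63%). The E2F site letters are so rare that their absence from so few windows says little.

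The binding element of REST, RE1, is made of a left part (TTCAGCACC) and a right part (GGACAGCGC) set 2 bases apart. Neither part was found on either strand of the windows of the 6 genes. Only 0.376% and 0.581% of all promoters hold them, so their absence from so few windows says little. When the parts were matched together, the best match of CHGA, SYP, ENO2, UCHL1, NES and the upstream REST start held 11 of 18 letters, which 66.5% of all promoters reach, and that of the downstream REST start held 13, which 4.35% reach. These counts describe the letters of the windows and not the binding of REST, whose elements also lie outside promoters. The GC content of the windows was 60.3 to 79.3%, above the median of all promoters (58.7%) in all 7, and the number of CpG dinucleotides was from 14 in NES to 46 at the downstream start of REST, against a median of 14.0.

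Epithelial genes were also read, but without a reference sample the identity of the cells was not tested. Of all genes, 56.3% exceeded the main bound and 72.0% the olfactory receptor bound. Of 12 epithelial genes measured 4 exceeded the bound, keratin 18 (KRT18) at 7.75 ± 0.11, the tight junction gene CLDN3 at 7.46 ± 0.08, keratin 14 (KRT14) at 6.86 ± 0.08 and, at the bound itself, the mucin gene MUC1 at 6.43 ± 0.04 log2 (SD, n = 3). The lowest was the adhesion molecule gene EPCAM at 4.52 ± 0.29 (SD, n = 3). KRT8, the partner of keratin 18, and the epithelial cadherin gene CDH1 were below the bound at 5.75 ± 0.02 and 4.95 ± 0.09 (SD, n = 3). Against the olfactory receptor bound 8 of the 12 genes were above it, and EPCAM and CDH1 were among the 4 below. CLDN3, KRT14, MUC1, KRT8 and CDH1 were named after their values were seen.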

How the data were processed

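Total RNA of 3 C33A cultures was labelled and hybridized to Human Gene 1.0 ST arrays. The authors extracted the scanner data with the Affymetrix GeneChip Command Console Software, normalized them by RMA, which the labels also name, and processed them further with oneChannelGUI, and deposited 1 log2 intensity for each probe set and array. RMA fits the arrays to a common distribution, so that a shift of all genes between cultures cannot be seen. Software versions were not found in the labels or methods.

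Of 33297 probe sets, 19460 carry 1 symbol in the platform annotation and were used, with symbols brought up to date by Entrez number through the RefSeq table (19429 found). Those with several symbols (1754) or no gene listed (12083) were left out. Where a gene had more than 1 probe set (769 genes), their mean was taken. Means and SDs are over 3 arrays, whose number limits the precision. No test was run, since there is 1 group. A gene's percentile is its place among all measured genes, and deciles follow the mean level. The members and gene lists were chosen with earlier results of these data known. Named beyond the 9 members are the highest and lowest gene of each list and all genes of 4 short families, with exceptions marked. Functions were tested on simulated data. Alternatives left out each array, kept only the probe set of highest signal per gene, repeated the normalization, changed the bound or ranked protein-coding genes only. Python 3.11.15, NumPy 2.4.6, pandas 2.3.3 and matplotlib 3.10.9 were used.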

Additional observations from a re-analysis of the deposited data

How the results depend on the processing

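The number of marker genes above the bound depended on the choice of bound and on no other setting tried. It was 5 with the 95th percentile of the 4 silent families, 6 with the 90th percentile (5.87 log2), 2 with the 99th (7.88 log2, UCHL1 and REST) and 8 with the olfactory receptor genes alone (5.38 log2). The shares of all measured genes above these bounds were 56.3%, 64.8%, 37.2% and 72.0%. Of 145 other genes of the neural and related lists, which include widely expressed corepressors, lamins and enzymes, 57 (39.3%) exceeded the main bound, 80 the 90th percentile, 31 the 99th and 98 the olfactory receptor bound. Leaving out each array in turn gave 5 marker genes each time and 57 to 60 list genes, and the number of marker genes above the median gene stayed at 4. The level of each marker gene moved by at most 0.10 log2 without an array. Ranking protein-coding genes only lowered percentiles by up to 2.76 points. SYP was then at 48.0, below the median of those genes. No paired analysis was possible because the 3 arrays form 1 group. Signal near that of the silent families limits what can be said of ENO2, CHGB, NES, CHGA and NCAM1, since a low signal does not show that a transcript is absent.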

Other observations

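Genes of the products that neuroendocrine cells and neurons release were mostly below the main bound. The medians of the transmitter and peptide lists lay above that of the silent families together (4.05 log2). They lay below those of the keratin-associated protein genes (5.74) and of all genes (6.91). Of all genes, 56.3% exceeded the main bound and 72.0% the olfactory receptor bound. None of 10 genes of transmitter synthesis exceeded the bound of 6.43 log2, with a median of 5.09 and tyrosine hydroxylase (TH), which makes the precursor of dopamine, the highest at 6.24 ± 0.03 (SD, n = 3). Of these 10 genes 4 exceeded the olfactory receptor bound of 5.38. Of 13 peptide hormone and neuropeptide genes 1 exceeded the main bound, gastrin-releasing peptide (GRP) at 6.46 ± 0.04 (SD, n = 3), by less than its SD, and neurotensin (NTS) was the lowest at 3.28 ± 0.15 (SD, n = 3). The median of the peptide genes was 5.66, and 9 of the 13 exceeded the olfactory receptor bound. Of 9 mature neuron genes 2 were above the bound. The highest was GAP43, a protein of growing axons, at 10.74, 11.25 and 10.82 log2 (mean 10.94 ± 0.27, SD, n = 3), above 97.3% of all genes, and the lowest the RNA-binding protein gene ELAVL4 at 3.42 ± 0.10 (SD, n = 3).

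Of 10 glial genes 2 exceeded the bound, with OLIG1 the highest at 6.95 ± 0.24 and AQP4 the lowest at 3.32 ± 0.06 (SD, n = 3). Markers of other cell types were mostly below the main bound. Above it were 2 of 7 leukocyte, 2 of 8 fibroblast and 1 of 7 endothelial genes, against 56.3% of all genes. With the olfactory receptor bound the counts were 4, 5 and 1, against 72.0% of all genes. Each of these lists nevertheless had a gene of higher level, PTPRC, the leukocyte phosphatase CD45, at 8.82 ± 0.11, the collagen gene COL3A1 at 11.36 ± 0.06 and the tight junction gene CLDN5 at 6.89 ± 0.06 (SD, n = 3). The lowest members were LYZ at 3.59 ± 0.13, LUM at 2.52 ± 0.14 and EMCN at 3.26 ± 0.09 (SD, n = 3).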
